A study of Mus musculus with 4 samples.

Results

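The nuclear genes for the mitochondrial respiratory chain and ATP synthase were compared between in vitro-derived and thymic CD8+ T cells of the mouse. The genes were taken by name from the probes of the array: names beginning with Nduf, Uqcr or Atp5, names of the form Cox followed by a digit from 4 to 8, and Sdha, Sdhb, Sdhc and Sdhd. This gave 82 genes with 113 probes, out of 28785 gene names on the array. Of these genes 80 were tested, among 19165 genes tested in all. The 2 others, Cox8b and Cox8c, had no probe well above background on all 4 arrays. The choice used names and no measured value.

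The in vitro-derived cells came from Lin-Sca1+CD117+ haematopoietic cells, sorted from the bone marrow of C57Bl/6 mice aged 6 to 8 weeks and grown for 35 days on OP9-DL1 cells with Flt3 (5 ng/ml) and IL7 (1 ng/ml). OP9-DL1 is a marrow stromal line that presents the Notch ligand Delta-like 1. The thymic cells came from C57Bl/6 mice aged 4 to 5 weeks. Neither kind was treated, and both were sorted as CD8+ cells with high T cell receptor beta. Each kind gave 2 RNA preps, and each in vitro-derived prep (Cy5) was hybridised with each thymic prep (Cy3) on 2-colour Agilent arrays, which gave 4 arrays. Donor age and dye run with the kind of cell on every array, so neither can be told apart from it. The labels name no separate animals, so the tests measure the spread between these preps.

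The respiratory chain passes electrons from NADH, through complex I, and from succinate, through complex II, to ubiquinone, and on through complex III and cytochrome c to complex IV, which reduces oxygen. Complexes I, III and IV pump protons out of the mitochondrial matrix, and ATP synthase uses their return to make ATP. Resting T cells draw much of their ATP from this route, and activated ones add glycolysis to it. A few subunits of complex IV and ATP synthase are encoded by more than 1 nuclear gene, with isoforms that belong mainly to heart and skeletal muscle, lung or testis.

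Every value below is a log2 ratio of in vitro-derived over thymic signal, as the mean of a gene's probes that passed the filter on dim signals, and errors are standard errors of the limma fit over 2 preps of each kind. A gene is called higher or lower at a limma adjusted p under 0.05, with Benjamini-Hochberg adjustment over all 19165 genes. A difference may come from fewer cells that hold a transcript or from less of it per cell, and these cannot be told apart in bulk RNA. The smallest p that exact permutation of 2 preps against 2 allows is 0.333, so the calls depend on a spread that limma shares over genes.

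After loess normalization within each array, most of these genes differed little between the 2 kinds of cell. Of the 80 tested, 29 were higher in in vitro-derived cells, 10 were lower and 41 did not pass the test, while with median centring of each array in place of loess 78 were higher and 0 lower. Over all genes 26.6% were called higher and 25.1% lower, or 51.7% in either direction, so that a call by itself is common on these arrays. With median centring the shares were 58.7% higher and 12% lower. With loess the median difference was 0.15 over the 80 genes and 0.03 over all genes tested. For the 80 genes it lay between 0.10 and 0.15 on each of the 4 arrays. Of the 80 genes, 72 (90%) lay within 0.5 of no difference with loess, against 73.1% of all genes. Cox6a2 alone differed by more than 1 with loess, where 10.1% of all genes did. The sign was the same on all 4 arrays for 69 of the 80 genes, against 14419 of all 19165, and for each of the 39 called ones, as for all 9912 called genes.

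**Figure D1:**
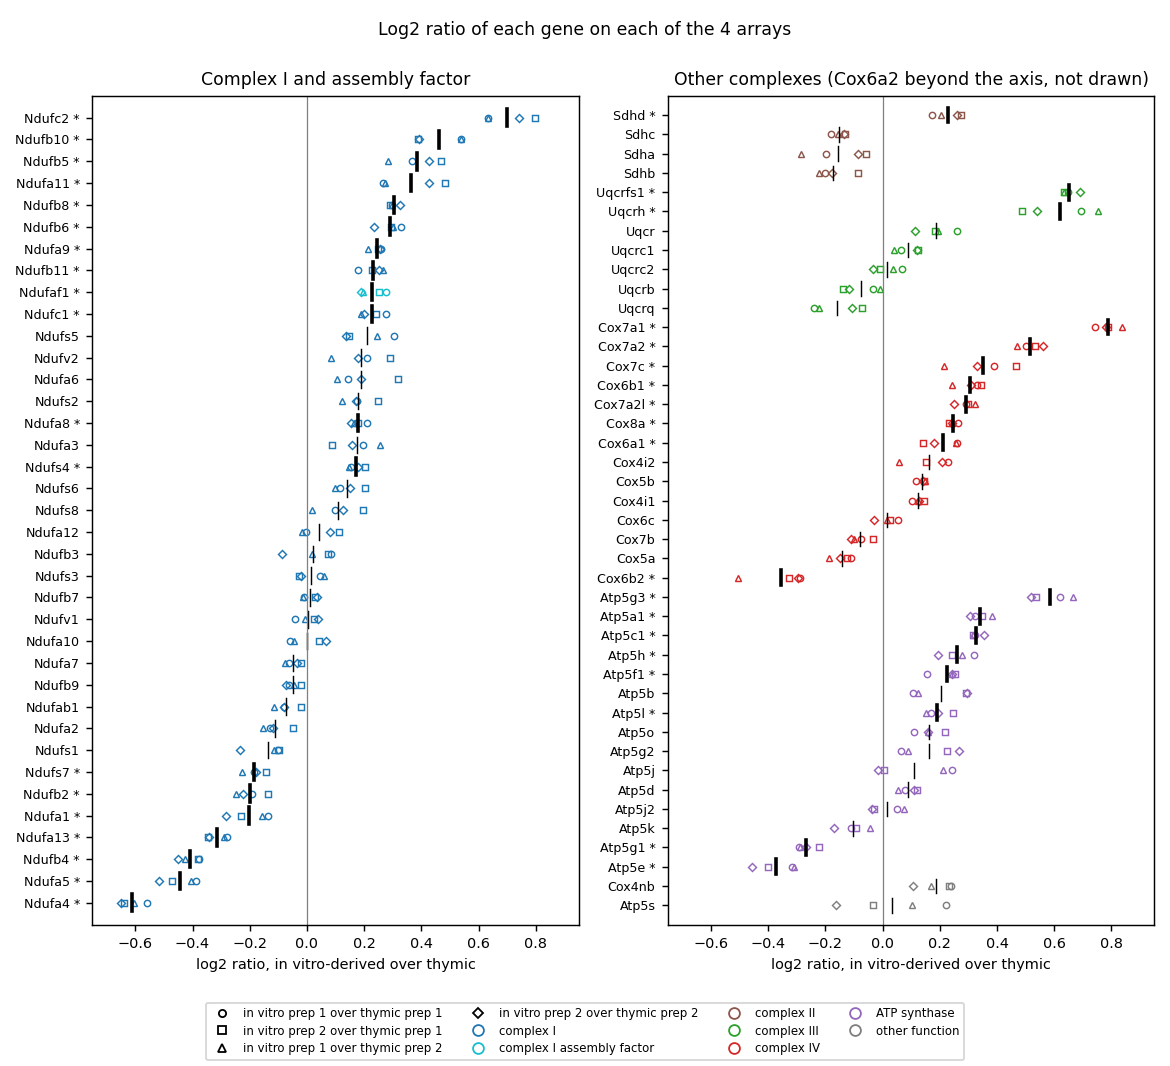
Log2 ratio of in vitro-derived over thymic signal (x axis) for 79 of the 80 tested genes (y axis), 1 symbol per array and a bar at the mean, thick and starred where called. The means run between -0.61 for Ndufa4 and 0.79 for Cox7a1 with loess, most genes lie within 0.5 of 0, and Cox6a2 (3.75) lies beyond the axis and is not drawn.

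Complex I, the NADH dehydrogenase, was represented by 36 subunit genes, of which 11 were higher and 7 lower, with a median of 0.08, while with median centring all 36 were higher. The 7 core subunits, which carry the flavin and iron-sulfur clusters and bind ubiquinone on the matrix arm, held no gene called higher, and Ndufs7 was the 1 called lower. Ndufs7 had log2 ratios of -0.18, -0.14, -0.23 and -0.18, a mean of -0.18 ± 0.06 (adjusted p = 0.0429 in limma). The other 29 subunits, which surround the core, held 11 higher and 6 lower.

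Ndufc2, a small subunit of the membrane arm, showed the largest increase of complex I. Its log2 ratios were 0.63, 0.80, 0.63 and 0.74 on arrays 1 to 4, a mean of 0.70 ± 0.07 (adjusted p = 0.000948). In vitro-derived prep 2 was on arrays 2 and 4 and gave the higher values, and all 4 lay far above 0. Ndufb10, also of the membrane arm, had 0.54, 0.39, 0.54 and 0.39, a mean of 0.46 ± 0.07 (adjusted p = 0.00421). Here in vitro-derived prep 1, on arrays 1 and 3, gave the higher values. Ndufb5 (0.39), Ndufa11 (0.36), Ndufb8 (0.30) and Ndufb6 (0.29) of the membrane arm followed. Ndufa9, at the joint of the matrix and membrane arms, was higher by 0.24, and Ndufb11 and Ndufc1 of the membrane arm by 0.23 each. Ndufa8 (0.18) and Ndufs4 (0.17), an accessory subunit of the NADH-oxidising module, were the smallest increases that passed.

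Ndufa4 showed the largest decrease of all 80 genes with loess. Its product was named for complex I and has since been assigned to cytochrome c oxidase, and it is counted here by its name. It had log2 ratios of -0.56, -0.64, -0.60 and -0.65, a mean of -0.61 ± 0.06 (adjusted p = 0.0008), and lay below 0 on all 4 arrays with loess, against 0.44 with median centring. Ndufa5 of the matrix arm had -0.39, -0.47, -0.40 and -0.52, a mean of -0.44 ± 0.06, and 0.49 with median centring. Ndufb4 was lower by -0.41 with loess and at 0.48 with median centring. Ndufa13, also known as Grim-19, was lower by -0.31, and Ndufa1 and Ndufb2 by -0.20 each, while with median centring these 3 lay at 0.87, 0.81 and 0.71. Ndufaf1, an assembly factor that is no subunit of the finished complex, was higher by 0.23 ± 0.06 (adjusted p = 0.0237).

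Complex II, the succinate dehydrogenase, has 4 subunits, and Sdhd, a membrane anchor, was the 1 called. Sdhd had log2 ratios of 0.17, 0.27, 0.20 and 0.26, a mean of 0.23 ± 0.06 (adjusted p = 0.0254). The other anchor, Sdhc, lay at -0.15 ± 0.05 (adjusted p = 0.0685), the flavoprotein Sdha at -0.16 ± 0.08 (adjusted p = 0.152) and the iron-sulfur subunit Sdhb at -0.17 ± 0.06 (adjusted p = 0.0668). Each of these 3 lay below 0 on all 4 arrays without passing the test, and with median centring all 4 genes of the complex were higher.

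Complex III, the cytochrome bc1 complex, held 2 higher genes among 7 and no gene called lower, while with median centring all 7 were higher. Uqcrfs1, the Rieske iron-sulfur protein that accepts electrons from ubiquinol, had log2 ratios of 0.65, 0.63, 0.63 and 0.69. Its mean was 0.65 ± 0.05 (adjusted p = 0.000539), and its 4 values lay close together. Uqcrh, the hinge protein at the docking site of cytochrome c, had 0.69, 0.49, 0.75 and 0.54, a mean of 0.62 ± 0.09 (adjusted p = 0.00313). The arrays with in vitro-derived prep 1 gave the higher values for Uqcrh. The core proteins Uqcrc1 (0.09) and Uqcrc2 (0.02) did not pass the test. Uqcrq, a small subunit, lay lowest of these 7 genes with loess, at -0.16 ± 0.07 (adjusted p = 0.111), and at 0.61 with median centring.

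Complex IV, cytochrome c oxidase, had 8 of its 15 tested genes called higher and 1, Cox6b2, called lower, with a median of 0.21, while with median centring 13 were higher and 0 lower. Cox6a2 stood apart from every other gene of the set. It encodes the heart and skeletal muscle isoform of subunit VIa, whose widely expressed isoform is Cox6a1. Its log2 ratios were 3.13, 4.34, 3.11 and 4.41, a mean of 3.75 ± 0.40 or 13.4-fold (adjusted p = 0.00121), and 20 genes of the whole array had a larger positive difference. The ratio was 8.69-fold in in vitro-derived prep 1, on arrays 1 and 3, and 20.7-fold in prep 2, on arrays 2 and 4, while the thymic preps gave nearly the same values. That gap of 1.25 between the in vitro-derived preps was at the 99.9th percentile of all genes. Without Cox6a2 the largest such gap among the members was 0.26. Without in vitro-derived prep 1 the Cox6a2 difference was 4.37, and without prep 2 it was 3.12.

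The mean log2 intensity of the Cox6a2 probe was 12.14 in the in vitro-derived channel and 8.39 in the thymic channel, and it was well above background in both channels on all 4 arrays. None of the tested markers of skeletal and heart muscle was called higher beside it. Of 5 on the list 4 were tested, 0 were higher and 1 was lower, with a median of -0.28 against 0.03 over all genes. Tnnt2, the cardiac troponin T gene, was lower by -0.74 on a dim probe, with -3.54 from processed signals and -1.23 with a normexp offset of 16, and Actn2 (-0.46), Myh7 (-0.10) and Ckm (-0.02) did not pass the test. Myh6 was not well above background. The mean log2 intensities of Tnnt2 (6.44), Myh7 (6.63) and Ckm (6.70) lay in the dimmest decile of tested genes (6.18 to 6.72). The summed signal of these markers was 9.57 to 9.88 on the log2 scale in the in vitro-derived preps, against 10.1 in both thymic preps. Actn2 made up most of that sum, with mean log2 levels of 9.17 in in vitro-derived and 9.64 in thymic preps.

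Cox7a1, the heart and skeletal muscle isoform of subunit VIIa, had the next largest difference with loess, while with median centring several members, such as Uqcrh at 1.82, lay above it. It had log2 ratios of 0.74, 0.79, 0.84 and 0.78, a mean of 0.79 ± 0.05 (adjusted p = 0.000323). Both in vitro-derived preps gave about the same value. The widely expressed isoform Cox7a2 had 0.50, 0.53, 0.47 and 0.56, a mean of 0.52 ± 0.06 (adjusted p = 0.00133). Cox7a2l, which encodes a related protein, was higher by 0.29. Cox7a1 exceeded Cox7a2 by 0.22 to 0.37 on each array with loess, while with median centring Cox7a1 lay at 1.26, below Cox7a2 at 1.45 and close to Cox7a2l at 1.27. All 3 genes were higher with either normalization, and their order was not the same.

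Cox6b2, the testis isoform of subunit VIb, had log2 ratios of -0.29, -0.33, -0.51 and -0.29, a mean of -0.35 ± 0.07 (adjusted p = 0.00852), and 0.096 with median centring. Its widely expressed counterpart Cox6b1 was higher at 0.31 ± 0.06 (adjusted p = 0.00892), and the values of the 2 genes did not overlap on the 4 arrays. Cox4i2, the lung isoform of subunit IV, lay at 0.16 ± 0.06 (adjusted p = 0.0665) and Cox4i1, the main isoform, at 0.12 ± 0.05 (adjusted p = 0.11). Cox4i2 moved to 0.46 and was called higher with Agilent's processed signals (adjusted p = 0.0128 in limma), and lay at 0.03 with median centring. Its probe was well above background in the thymic channel on 1 of 4 arrays. Of the subunit VIII isoforms, Cox8a was higher by 0.25. The muscle isoform Cox8b was not above background on any array, and the testis isoform Cox8c was above it on 1 array in each channel. Cox7b was tested at -0.08 and did not pass, and its testis counterpart Cox7b2 was not above background. The remaining increases in the complex were Cox7c (0.35) and Cox6a1 (0.21).

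**Figure D2:**
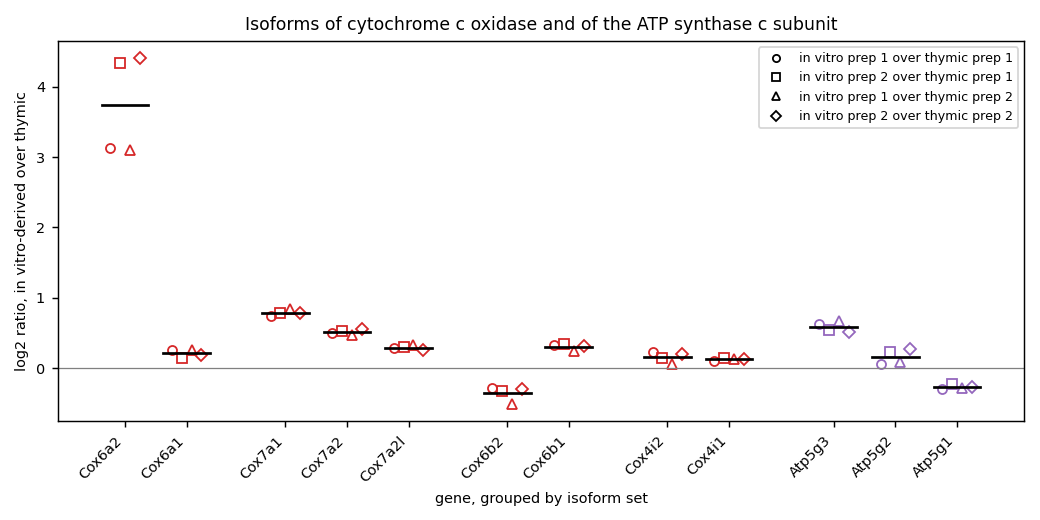
Log2 ratio of in vitro-derived over thymic signal (y axis) on each array for genes of the isoform sets (x axis; complex IV in red, ATP synthase in purple), with a symbol per array and a bar at the mean. Cox6a2 splits by in vitro-derived prep (3.13 and 3.11 for prep 1, 4.34 and 4.41 for prep 2), and Atp5g3, Atp5g2 and Atp5g1 keep that order on every array, with Atp5g1 below 0 with loess and at 0.62 with median centring.

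The promoters of a widely expressed and a muscle isoform of complex IV are given here. Both genes were called higher, Cox6a1 near the loess median of such bright genes, and their sequences hold different motifs. They are RefSeq sequences of the GRCm38.p6 build, from 250 bases before to 50 bases after the start of the gene, on the strand of the gene. Cox6a1 lies at chr5:115348909-115349208 on the minus strand and Cox7a1 at chr7:30183921-30184220 on the plus strand. Capitals mark matches, on either strand, to the letters searched for the factors NRF1, GABPA, YY1 and SP1.
Cox6a1: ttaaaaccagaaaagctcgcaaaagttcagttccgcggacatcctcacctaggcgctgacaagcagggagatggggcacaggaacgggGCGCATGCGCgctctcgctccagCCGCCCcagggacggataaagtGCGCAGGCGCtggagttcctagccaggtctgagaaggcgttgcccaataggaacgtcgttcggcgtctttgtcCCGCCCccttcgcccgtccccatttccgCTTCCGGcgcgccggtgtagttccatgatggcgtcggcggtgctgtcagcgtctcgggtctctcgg
Cox7a1: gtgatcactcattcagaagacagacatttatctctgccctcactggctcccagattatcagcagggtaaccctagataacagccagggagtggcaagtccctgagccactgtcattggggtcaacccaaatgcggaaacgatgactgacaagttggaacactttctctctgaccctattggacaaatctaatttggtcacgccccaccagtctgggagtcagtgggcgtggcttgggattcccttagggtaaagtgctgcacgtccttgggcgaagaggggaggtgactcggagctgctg
The Cox6a1 promoter holds 2 matches for NRF1, 1 for GABPA and 2 for SP1, and the Cox7a1 promoter holds none of these 4. Cox6a2 has no entry in the table.

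ATP synthase held 6 higher and 2 lower genes among 15, with a median of 0.16, while with median centring all 15 were higher. In the catalytic F1 head, the alpha subunit Atp5a1 (0.34) and the gamma shaft Atp5c1 (0.33) were higher, and the epsilon subunit Atp5e was lower with loess, and at 0.75 with median centring. Atp5e had log2 ratios of -0.32, -0.40, -0.31 and -0.46, a mean of -0.37 ± 0.06 (adjusted p = 0.00676). The beta subunit Atp5b lay at 0.20 ± 0.08 (adjusted p = 0.0805) and the delta subunit Atp5d at 0.09 ± 0.06 (adjusted p = 0.234). Genes of 1 head thus differed in sign with loess. Of the 7 genes outside F1 and the c ring, 3 were higher, namely Atp5h (0.26, subunit d), Atp5f1 (0.22, subunit b) and Atp5l (0.19, subunit g), and none was called lower.

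The c ring turns as protons pass, and its subunit c is encoded by Atp5g1, Atp5g2 and Atp5g3, which give the same mature protein from precursors with different import signals. Atp5g3 had log2 ratios of 0.62, 0.54, 0.67 and 0.52, a mean of 0.59 ± 0.06 (adjusted p = 0.00139). Atp5g2 had 0.06, 0.23, 0.09 and 0.27, a mean of 0.16 ± 0.08 that did not pass the test (adjusted p = 0.137). Atp5g1 had -0.29, -0.22, -0.29 and -0.27, a mean of -0.27 ± 0.06 (adjusted p = 0.0119), and 0.62 with median centring. Atp5g3 exceeded Atp5g1 by 0.76 to 0.96 on every array, and Atp5g2 lay between them on every array. The promoters of the genes at either end of this order, from the same RefSeq table and written in the same way, lie at chr2:73911277-73911576 (Atp5g3) and chr11:96075582-96075881 (Atp5g1), both on the minus strand.
Atp5g3: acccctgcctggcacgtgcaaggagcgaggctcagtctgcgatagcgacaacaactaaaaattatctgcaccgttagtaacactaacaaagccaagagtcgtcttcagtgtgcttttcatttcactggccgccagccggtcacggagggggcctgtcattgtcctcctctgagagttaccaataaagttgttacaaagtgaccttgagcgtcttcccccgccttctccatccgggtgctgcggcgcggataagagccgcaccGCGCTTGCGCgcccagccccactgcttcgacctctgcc
Atp5g1: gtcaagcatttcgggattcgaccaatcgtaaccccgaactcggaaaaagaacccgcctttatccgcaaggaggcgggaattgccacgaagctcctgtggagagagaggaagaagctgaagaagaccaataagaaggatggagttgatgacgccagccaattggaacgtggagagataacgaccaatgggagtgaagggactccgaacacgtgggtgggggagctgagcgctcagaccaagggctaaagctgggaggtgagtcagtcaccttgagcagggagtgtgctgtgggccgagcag
Atp5g3 holds 1 match for NRF1, after the start of the gene, and Atp5g1 holds none of the 4 motifs.

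The names took in 2 genes of other function. Cox4nb, now Emc8, belongs to the membrane protein complex of the endoplasmic reticulum and lay at 0.19 ± 0.06 (adjusted p = 0.0555). Atp5s, now Dmac2l, is related to a coupling factor of ATP synthase and lay at 0.03 ± 0.11 (adjusted p = 0.825). Neither was called. Another 9 subunit or assembly factor genes stand on the array under older names, which the choice by name missed. Of these 8 were tested, 2 were higher (Ndufv3 at 0.24 and Atp5md, a small ATP synthase subunit, at 0.20) and 2 lower (the complex I assembly factors Ndufaf4 at -0.70 and Ndufaf5 at -0.21, with Ndufaf5 at 0.36 with median centring). With median centring 7 of the 8 were higher and 1 lower.

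The direction of the whole set depended on how each array was normalized, and brightness ran with that dependence. Of the 80 genes 60 lay in the brightest 10% of all tested genes, where signal intensity is the mean log2 of both channels. With loess, which removes a trend of the ratio with intensity, the median was 0.12 for these 60 genes and -0.01 for all 1917 genes of that class. With median centring, which keeps such a trend, the medians were 1.06 for the 60 and 0.89 for the 1917, while the median of all tested genes moved to 0.34. Over the 79 members other than Cox6a2, intensity and difference had a Pearson r of -0.01 (Spearman rho 0.09) with loess and of 0.64 (rho 0.63) with median centring. These genes share the arrays and the dyes, so the coefficients are descriptions only. Over all 19165 genes r was -0.01 with loess and 0.41 with median centring. Dyes were not swapped, and an intensity-dependent dye effect and a true rise of bright transcripts cannot be told apart.

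The members were also set against genes of the same decile of intensity under median centring. This repeats the kind of correction for intensity that loess makes, so the sides below describe the values and support nothing. The brightest decile, which held 60 members, spanned 12.46 to 17.45, so its genes were not equally bright. Within that span the median of all genes was 0.75 at 12 to 13, 1.13 at 15 to 16 and 1.51 at 16 or more. Cox6a1 (1.53) lay near the last of these, and Ndufa13 (0.87) below the median at 15 to 16. Each of the 29 genes called higher with loess lay above the median of all genes in its own decile of intensity, by 0.12 (Ndufc1) to 3.80 (Cox6a2). Each of the 10 called lower with loess lay below that median, by -0.02 (Ndufa13) to -0.46 (Ndufa4), although all 10 were above 0 in themselves. Among the 16 members at a mean log2 intensity of 15 or more, 9 were higher and 2 lower with loess, where 39.4% of all genes of that brightness were higher and 24.7% lower. With loess the spread of the set was narrower than that of all genes in the same class of brightness. Among the brightest 10% of genes, 90% of the members lay within 0.5 of no difference with loess, against 63.6% of all genes there. No member there exceeded 1 with loess, where 13.56% of all genes did. With median centring the median of these members was 1.06, so these shares hold for loess only.

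**Figure D3:**
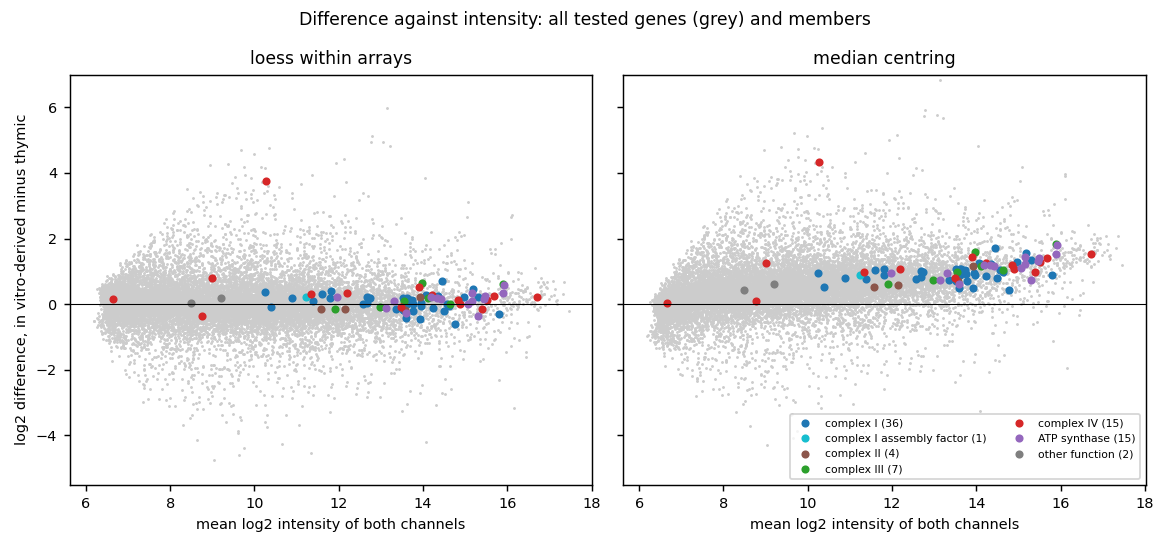
Log2 difference, in vitro-derived minus thymic (y axis), against mean log2 intensity (x axis) for all tested genes in grey and the 80 members in colour, after loess (left) and after median centring (right). The members lie near 0 after loess (median 0.15) and near 1 after median centring (median 0.99), where the grey cloud bends upward with intensity.

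Probes of the same gene did not always give the same value. Of the members 21 had 2 or more probes that passed the filter, and the median range between probes of 1 gene was 0.25. Over all probes tested 52.2% were called in either direction. Ndufab1, the mitochondrial acyl carrier protein that also belongs to complex I, was the 1 member with probes called in opposite directions. Its bright probe on a RefSeq transcript gave 0.26 ± 0.07 (adjusted p over all probes 0.0351 in limma) and its dim probe on a cDNA clone -0.51 ± 0.06 (adjusted p 0.00165). Another probe on a RefSeq transcript gave 0.03 ± 0.06 and was not called. The gene's mean of -0.07 over these 3 probes stands for neither of the called ones. The following genes were chosen after their values were seen. The 3 probes of Atp5b gave 0.60, 0.10 and -0.09 from bright to dim, and only the bright one was called. Uqcrq gave 0.01 on its bright probe and -0.34 on its dim one, and Ndufa3 0.00 and 0.35. For Ndufa7 the bright probe gave -0.21 and the dim one 0.11. Ndufb8 and Ndufc1, called higher as genes, gave 0.18 and 0.16 on their bright probes, which were not called. Their dim probes gave 0.43 and 0.29 and were called. The 2 probes of Cox7a2 were close to each other at 0.50 and 0.53. The brightest probe of a gene was above its dimmest in 11 genes and below it in 10 with loess, and above it in 18 with median centring. Ndufv3, outside the set by its name on the array, had probes at 0.57, 0.43 and -0.27, all called.

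**Figure D4:**
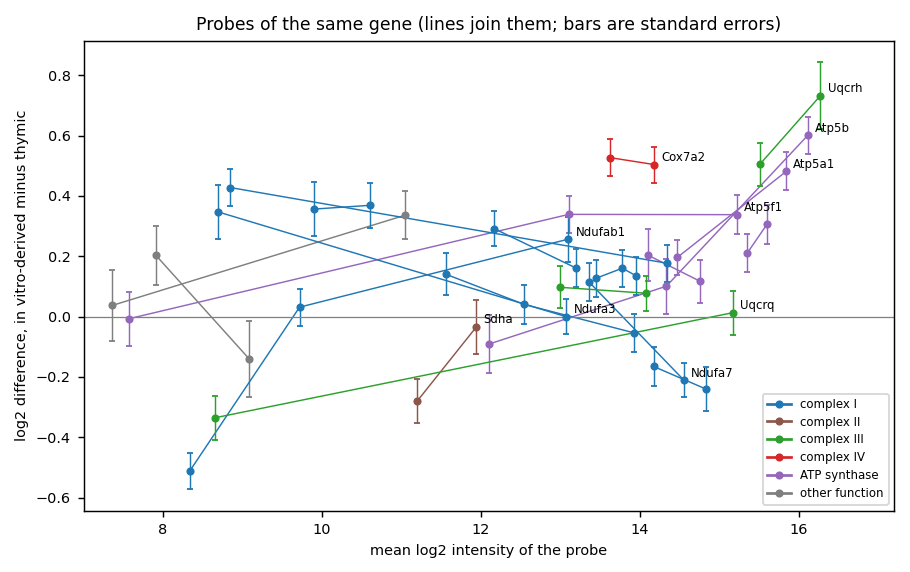
Log2 difference, in vitro-derived minus thymic (y axis), against mean log2 intensity (x axis) for each probe of the 21 genes with 2 or more probes, after loess; lines join probes of a gene and bars are standard errors. The probes of Ndufab1 span -0.51 to 0.26 and those of Atp5b -0.09 to 0.60.

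Genes that work beside the respiratory chain were described from lists of the pathway. The counts of each list stand beside 26.6% higher and 25.1% lower over all genes with loess, and 58.7% and 12% with median centring. The TCA cycle feeds the respiratory chain NADH and succinate. Its 13 tested genes held 4 higher and 2 lower, with a median of 0.15, against 13 and 0 with median centring. Idh3a, a subunit of isocitrate dehydrogenase, was higher by 0.33 and Dld, the dihydrolipoamide dehydrogenase, by 0.25. Suclg1, a subunit of succinyl-CoA ligase, was lower by -0.60 and Ogdh, of 2-oxoglutarate dehydrogenase, by -0.28, while with median centring they lay at 0.28 and 0.30. A list of cytochrome c, Cyc1, and mainly assembly genes of complexes III, IV and ATP synthase held 19 tested genes. Of these 3 were higher and 7 lower, with a median of -0.09, against 12 and 1 and a median of 0.46 with median centring. Cyc1, the cytochrome c1 subunit of complex III, lies outside the set by its name and lay at -0.18 ± 0.07 (adjusted p = 0.0745 in limma). Among them Atpif1, the inhibitor of ATP synthase, was higher by 0.69 ± 0.07 (adjusted p = 0.000905). Cycs, the somatic cytochrome c, was lower by -0.46, Cox11, a copper chaperone of complex IV, by -0.48 and Ttc19, of complex III, by -0.52. With median centring Cycs lay at 0.33, Cox11 at 0.15 and Ttc19 at -0.21.

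Among inner membrane carriers 3 of 10 were higher and 1 lower, with a median of 0.09, against 8 and 0 with median centring. Slc25a5, the ADP/ATP carrier that exports the ATP made, had log2 ratios of 0.92, 1.04, 0.94 and 1.02, a mean of 0.98 ± 0.06 (adjusted p = 0.00024). It lay above every member but Cox6a2. Slc25a10, the dicarboxylate carrier, was higher by 0.74 and Slc25a1, the citrate carrier, by 0.59, and Slc25a11, the oxoglutarate carrier, was lower by -0.92 (-0.03 and not called with median centring). Protein import genes held 5 higher and 5 lower of 17, or 29.4% each, near the 26.6% and 25.1% of all genes. Their median was -0.14, against 14 and 1 and a median of 0.68 with median centring. Tomm20, a receptor of the outer membrane, was higher by 0.61, and the small chaperones Timm10 (-1.17), Timm9 (-0.56) and Timm13 (-0.49) were lower. Timm8b, of the same kind and named after its value was seen, was higher by 0.43. With median centring Timm13 lay at 0.48, Timm9 was still lower at -0.20, and Timm10 lay at -0.39 and was no longer called (adjusted p = 0.0759 in limma).

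Genes for mitochondrial DNA upkeep and transcription held 3 higher and 4 lower among 10, with a median of 0.06, against 6 and 2 with median centring. Top1mt, the mitochondrial topoisomerase, was lower by -1.39, Polg2, the accessory subunit of the DNA polymerase, by -0.66 and the helicase Twnk by -0.43. With median centring Polg2 lay at -0.04 and was no longer called (adjusted p = 0.593 in limma), and Top1mt and Twnk were still lower, at -0.87 and -0.25. Polrmt, the RNA polymerase, was lower by -0.30 with loess and at 0.35 with median centring. Among 9 regulators of mitochondrial biogenesis 2 were higher and 3 lower, with a median of 0.16, against 6 and 1 with median centring. Pprc1, a coactivator related to PGC-1alpha, had log2 ratios of -1.61, -1.35, -1.65 and -1.36, a mean of -1.49 ± 0.10 (adjusted p = 0.000302). Ppargc1b, the coactivator PGC-1beta, was lower by -0.54 and the nuclear receptor gene Esrra by -0.50 with loess, and lay at 0.0044 and 0.089 with median centring. The factor genes Nrf1 (0.45) and Gabpa (0.44, named after its value was seen) were the 2 higher ones. No gene encoded by mitochondrial DNA was on the array under the names searched.

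Promoters of the set were searched for the letters of NRF1, GABPA, YY1 and SP1, factors known to act on respiratory chain genes. The letters of the E box were searched as well. Cox4nb and Atp5s, of other function, were left out here, and the untested Cox8b and Cox8c were kept. Of the 80 genes thus sought, which differ from the 80 tested, 66 matched the RefSeq table, with 71 promoters of 300 bases each. In all 32851 promoters were searched, on both strands. The NRF1 letters (GCGCA and GCGC with 1 free base between them) were found in 25.4% of the members' promoters, against 4.6% of all promoters. CCGGAAG (GABPA) was in 23.9%, against 8.9%, and AANATGGCG (YY1), which can overlap other motifs, in 14.1%, against 2.4%. GGGCGG (SP1) was in 39.4%, against 35.7%, and CANNTG (E box) in 70.4%, against 72.3%. The members' promoters were richer in GC, with a median of 57.3% against 52.7%, and whether this composition bears on the shares was not tested. Of the 28 promoters of genes called higher 7 held the NRF1 letters and 9 the GABPA letters, and of the 11 promoters of genes called lower 3 and 1 did. The YY1 letters were in 4 of the 28 and 1 of the 11. The SP1 letters were in 9 and 7, and the E box letters in 20 and 5. Both the Cox6a1 promoter, with 2 NRF1 matches, and the Cox7a1 promoter, with none, thus belong to genes called higher. The Cox6a1 call did not hold with Agilent's processed signals.

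The log ratios of any pair of arrays had a correlation of at least 0.946 across probes. On each, 66.5% to 70.9% of 43379 non-control spots were well above background in the in vitro-derived channel and 63.7% to 65.6% in the thymic channel, and no spot of a member was marked by the scanner software or saturated. The labelled cell type was checked on 11 T cell and CD8 markers, all of which were tested. Of these 2 were higher and 7 lower, with a median of -0.59 (8 and 0 with a median of 0.38 with median centring), and Cd5 was lower by -1.39, Cd8a by -0.77, Cd3g by -0.70 and Ptprc by -0.64. With median centring Cd5 lay at -0.33 and was no longer called (adjusted p = 0.0653 in limma), and the other 3 lay at 0.29, 0.44 and 0.16. The 2 T cell markers called higher with loess were Lck (0.49) and Thy1 (0.39), named after their values were seen. Cd3d (0.02) and Cd247 (-0.10) did not pass the test with loess. Markers of immature double-positive thymocytes were higher in 6 of 6 tested genes (median 3.64; Dntt 4.82, Arpp21 4.19, Rag1 3.34), and their summed log2 signal was 15.9 to 16.1 in in vitro-derived preps, against 11.6 in thymic preps. Of 20 mesenchymal stroma markers 17 were tested, 14 were higher and 1 lower (median 1.06; Pdgfrb 4.69, Col1a2 2.94, Cxcl12 2.61, Col1a1 2.47), with summed log2 signals of 15.01 to 15.43 in in vitro-derived preps, against 15.6 to 15.7 in thymic preps. Vim, the stroma marker called lower (-0.91, with 0.19 with median centring), made up most of that sum. Without Vim, left out after the values were seen, the sum was 13.39 to 13.66 in in vitro-derived preps, against 11.66 to 11.72 in thymic preps. B cell markers held 0 higher and 1 lower of 5 (Cd79b -0.43, with 0.22 with median centring), myeloid markers 2 and 2 of 6 (Lyz2 -1.53, Mpo 0.47, Itgam 0.42, Csf1r -0.20), and the 1 erythroid marker tested of 3 was not called. Sizes of dim markers depended on the signal used, as for Cxcl12 (5.35 with processed signals). These markers moved with the kind of cell, as the members did, and their part in the members' differences was not tested.

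**Figure D5:**
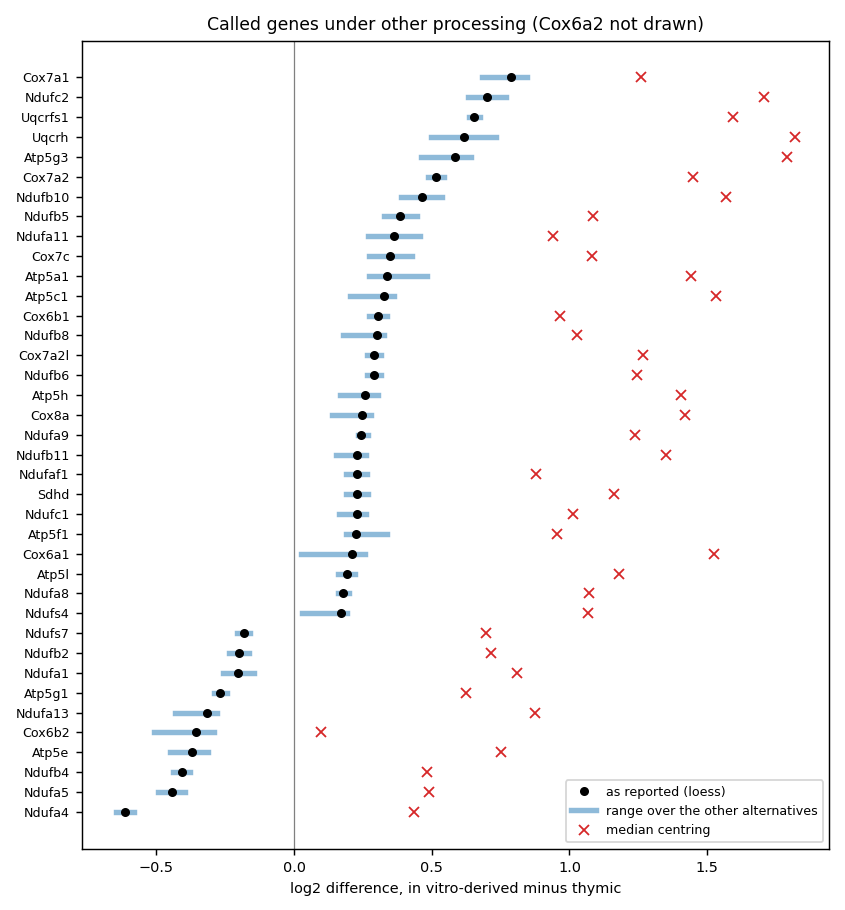
Log2 difference, in vitro-derived minus thymic (x axis), of the called genes other than Cox6a2 (y axis) as reported (black points), its range over the other alternatives (blue bars) and with median centring (red crosses). Every called gene keeps its sign over the blue bars, and the 10 genes below 0 lie above 0 with median centring, between 0.096 for Cox6b2 and 0.87 for Ndufa13.

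Other processing changed many calls of single genes. Of the 39 called genes 8 stayed called, in the same direction, under all 21 alternatives tried: Cox6a2, Cox7a1, Cox7a2, Ndufb10, Ndufc2, Uqcrfs1, Uqcrh and Atp5g3. Ndufa4 and Ndufa5 changed only with median centring. Without thymic prep 1 the members held 8 higher and 3 lower calls, and without thymic prep 2 they held 10 and 2. With the background model fitted on all spots 18 were higher and 7 lower, and with Agilent's processed signals 19 and 7.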

How the data were processed

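Each array has a deposited scanner file of spot intensity values for both channels, from Agilent Feature Extraction, version 9.5.1.1 in the file headers. The authors also deposited a table of log10 ratios of Cy5 over Cy3. Its scale and direction come from a comparison with the scanner ratios (correlation at least 0.9999 on each array). Its 4 column medians were 0, and each column holds 6110 to 7222 probes at exactly 0.

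From the mean signals and median local backgrounds, log2 ratios were computed here with limma 3.58.1 in R 4.3.3: spots marked as outliers or non-uniform were left out, background was corrected by normexp (offset 50), and loess was fitted within each array, giving control spots no weight. A probe entered if either channel was well above background throughout the 4 arrays (27242 of 41174 probes). Names outside the set were updated through RefSeq (GRCm38.p6) accessions, where 22951 probes matched and 5141 names changed. The 4 ratios of a gene were turned into 4 prep values and tested, two-sided, by limma with 2 residual degrees of freedom. The fit was tried on simulated log ratios with known changes. These held no background, normalization or dye effect, so they do not bear on those steps.

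The members, lists and motifs were chosen with earlier results of these data known. Genes named are the called members, isoform sets, extremes of each complex, members with probes called in opposite directions, and up to 4 called genes per other list; other names were chosen after their values were seen, and 1 gene under this rule is not reported here. The number of arrays limits the precision. Alternatives covered normalization, background, signal, dim-probe filter, probe choice, preps, arrays and a block by prep number.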

Additional observations from a re-analysis of the deposited data

Results flagged for a closer look

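Among 4 arrays, 1 array stood far from the other 3 for 3 of the 80 tested genes, judged by the gap to the nearest value over the whole range, above Dixon's critical value. Chance flags about 1 in 20 groups. For Ndufs1 (ratio 0.877), a core subunit of complex I, array 4 lay at -0.23 and the others at -0.12 to -0.10. For Atp5f1 (ratio 0.871) array 1 lay at 0.15 and the others at 0.24 to 0.25. For Ndufb8 (ratio 0.836) array 4 lay at 0.33 and the others at 0.29 to 0.30. Ndufs1 was not called, and Atp5f1 and Ndufb8 were called higher.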

How the results depend on the processing

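Over the alternatives the count of members called higher was 29 as reported, 78 under median centring, 19 from Agilent's processed signals and with the deposited log ratios, and 18 with the background model fitted on all spots. Leaving out 1 prep gave 8 to 28 higher and 2 to 11 lower, with a median of 0.13 to 0.15. Leaving out 1 array gave 24 to 25 higher and 7 lower, with the missing ratio imputed by least squares. Without a thymic prep the lone sample was assumed to vary like the in vitro-derived preps. The count called lower was 10 as reported and 0 with median centring. The median of the 80 genes was 0.15 as reported, 0.99 with median centring, 0.12 with processed signals, with the deposited log ratios and with a loess span of 0.1, 0.17 with a normexp offset of 16 and 0.13 with no filter on dim probes. Other alternatives gave 26 to 31 higher and 7 to 11 lower. Of all calls 51.5% were higher as reported, 83% with median centring and 46.2% to 52.2% otherwise. Limiting probes to RefSeq mRNA accessions and the loess span of 0.1 were added after the data had been seen. Aquantile scaling between arrays leaves ratios unchanged by construction. With prep number as a replicate block 26 were higher and 8 lower. This block ended 5 calls of members. The labels do not say whether equal prep numbers share a day or batch, and over 19165 genes the prep 1 minus prep 2 differences of the 2 kinds had a correlation of 0.12.

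With median centring these differences changed sign: Ndufs7 0.70, Ndufa1 0.81, Ndufa4 0.44, Ndufa5 0.49, Ndufa13 0.87, Ndufab1 0.52, Ndufb2 0.71, Ndufb4 0.48, Ndufaf5 0.36, Sdhb 0.72, Uqcrq 0.61, Cox6b2 0.096, Cox7b 0.80, Atp5e 0.75, Atp5g1 0.62, Suclg1 0.28, Ogdh 0.30, Cycs 0.33, Cox11 0.15, Polrmt 0.35, Ppargc1b 0.0044, Esrra 0.089, Timm13 0.48, Cd3g 0.44, Cd8a 0.29, Ptprc 0.16 and Cd79b 0.22. This list covers only genes named by the rule, and members outside it, such as Sdha (0.52) and Sdhc (0.58), changed sign too. Median centring keeps the trend with intensity by construction. Atp5s, not called, moved to -0.036 with processed signals and with the deposited log ratios, -0.0044 with the background fit on all spots, -0.14 on its brightest probe, -0.099 without in vitro-derived prep 1 and -0.031 without thymic prep 1. On the brightest probe Ndufab1 lay at 0.26, Ndufv3 at -0.27 and Uqcrq at 0.013, and with RefSeq probes Ndufab1 at 0.14 and Uqcrq at 0.013. The cause was not tested for these.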
